A study of Mus musculus with 6 samples.

Results

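Axon guidance ligands and receptors were examined in mouse cells sorted as neurons from the cortex around an infarct, 4 days after stroke. The genes were taken by symbol from 9 families: semaphorins, plexins, neuropilins, ephrins, Eph receptors, Slits, Robos, netrins, and the Unc5 receptors with Dcc. The table of 24419 genes held 69 of them, and 68 averaged at least 1 CPM (reads scaled to a common library size) over the 6 libraries and are described here. The gene left out, Sema3g, had 0 to 0.585 CPM, and the lowest kept, Efna4, averaged 1.31 CPM. The choice used only the symbol and this mean, not the treatment. Of the 68 genes, 1 (Ephb4) had a mean under 1 CPM in the 15-HETrE group alone and 1 (Ntn5) had one in the vehicle group alone.

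The samples were 3 libraries from animals treated with 15-HETrE and 3 from animals treated with vehicle. All animals were male, wild-type C57BL/6N mice in which a middle cerebral artery was occluded for 60 min. The 15-HETrE group received 600 ng of this hydroxylated fatty acid in 150 µL of phosphate-buffered saline, intravenously, at 24, 48 and 72 h after onset; the vehicle group was injected at the same times. Peri-infarct cells were sorted as positive for Thy1 and negative for ACSA2, CD31, CD45 and O4, antigens that mark astrocytes, vessel lining, blood-derived cells and the oligodendrocyte lineage. The sources used here do not state the age of the mice or whether a library came from 1 animal or a pool, so the p-values speak only for the variation among these libraries, part or all of which could be technical.

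Guidance cues steer growing axons by attracting or repelling the growth cone, and many of them act again in the injured brain, where several are known as brakes on axon regrowth. Semaphorins signal through plexins, with neuropilins as co-receptors for most of the secreted class 3 members. Ephrins are membrane-bound ligands of Eph receptor tyrosine kinases and can also signal back into the cell that carries them. Slits repel axons through Robo receptors, and netrins attract through Dcc or repel through Unc5 receptors. The same families shape blood vessels, and several members are made by oligodendrocytes, astrocytes or endothelium as well as by neurons.

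The libraries held 5405245 to 22558400 reads assigned to genes, fewest in vehicle combined, and 13763 to 17915 genes with a read. Libraries without a number in the table are called 15-HETrE unnumbered, 15-HETrE combined and vehicle combined. The column names do not say what combined means. 15-HETrE 1, vehicle 1 and vehicle 2 share a name prefix, 15-HETrE unnumbered has another, and the combined libraries have none. Values per library are given in the order 1, unnumbered and combined for 15-HETrE, and 1, 2 and combined for vehicle. Although the cells were sorted as neurons, the 10 oligodendrocyte markers summed to 16888 to 33070 CPM in 15-HETrE and 15937 to 24008 CPM in vehicle libraries. The 12 pan-neuronal markers summed to 3405 to 6446 CPM in 15-HETrE and 2093 to 3608 CPM in vehicle libraries; the lists hold different genes, so the sums do not compare shares of cells. The 10 fibroblast markers summed to 9340 and 7292 CPM in vehicle 1 and vehicle 2. These sums were 1201 to 1828 CPM in the 15-HETrE libraries and 1500 CPM in vehicle combined. All 10 had negative differences, and Pdgfra is also on the list of oligodendrocyte precursor markers. The mean log2(CPM + 1) of the list was 4.61, 6.56 and 3.35 in 15-HETrE libraries and 8.59, 8.20 and 3.82 in vehicle libraries. In bulk RNA, fewer cells of a type and less RNA per cell cannot be told apart.

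The comparison asked which guidance transcripts differed between 15-HETrE and vehicle. None of the 68 genes passed over all 14523 genes tested at an adjusted p of 0.05 (limma, background 0% higher and 0% lower), and none passed edgeR's quasi-likelihood test. In limma, none passed without both combined libraries (0.516% of all genes lower) or without vehicle combined (0.31% lower). None passed with the name prefix as a term (0.00689% higher, 0.0482% lower). That term left 15-HETrE unnumbered, alone under its prefix, out of the difference. On the log2(CPM + 1) scale, 47 of the 68 genes had a positive difference of 15-HETrE minus vehicle and 21 a negative one. Their median was 0.32, and over all genes tested 51.0% were positive with a median of 0.02. Of the pan-neuronal markers, 11 were positive and 1 negative, with a median of 0.81. Of the excitatory neuron markers, 10 were positive and 0 negative, with a median of 0.71. The part of neurons in the guidance gene values was not tested. At an unadjusted p under 0.05 in limma stood 8 guidance genes on the higher side and 3 on the lower side, 11 of 68 or 16.2%, against 9.5% of all genes (4.27% higher, 5.23% lower). In edgeR, 9 stood at an unadjusted p under 0.05, against 8.48% of all genes. In limma with the fibroblast marker level as a covariate there were 24 (18.9% of all genes), and without both combined libraries 19 (15% of all genes). No overlap between the 2 groups' libraries was seen for 9 genes on the higher side (13.2%, background 6.84%) and 6 on the lower side (8.82%, background 8.32%). The higher-side count was 14 without 15-HETrE 1, 18 without 15-HETrE combined, 19 without vehicle 1 and 15 without vehicle combined, where the background was 11.3%, 11.9%, 13.1% and 14.1%. DESeq2 on the recovered reads called 2 guidance genes, Plxnb2 and Ephb4, both lower, against 0.898% of all genes called lower and 0.242% called higher.

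**Figure D1:**
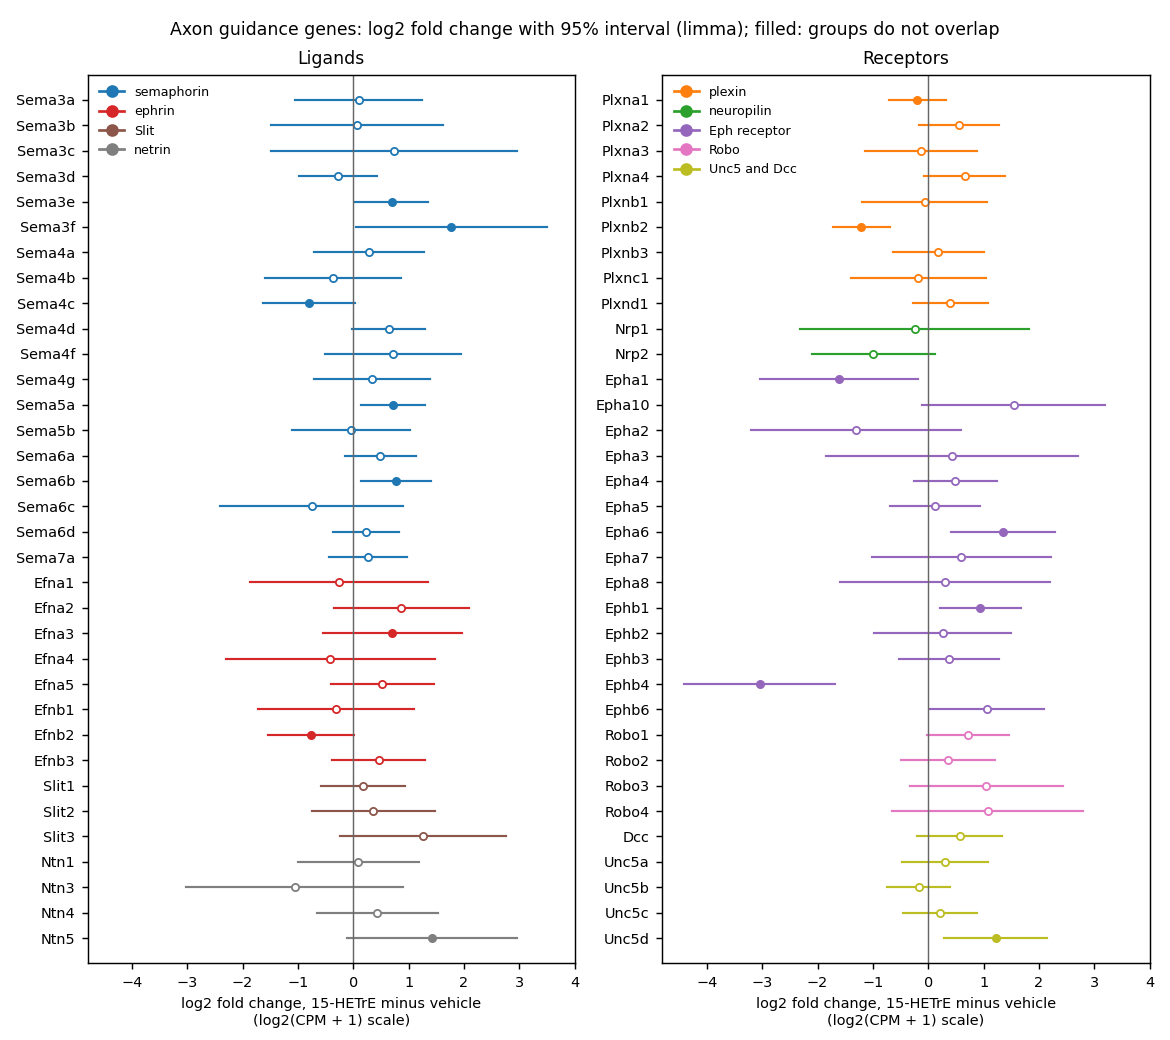
Log2 fold change of 15-HETrE minus vehicle on the log2(CPM + 1) scale for 34 ligand genes and 34 receptor genes, with 95% intervals from limma; colours mark families and filled points mark genes whose 3 libraries per group do not overlap. Intervals of 11 genes leave out 0 (before adjustment), with Ephb4 at -3.05 and Plxnb2 at -1.21 farthest from it in units of their error.

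Plxnb2 and Ephb4, both lower in 15-HETrE, had the smallest p among the guidance genes and held the same side in every library. They were picked by that p, so a gap wide relative to the spread follows from the choice. Plxnb2 (chromosome 15, 89155549 to 89180788, GRCm38) encodes plexin-B2, a receptor of class 4 semaphorins that is widely made in the embryonic and injured nervous system. It had 66.0, 81.8 and 67.0 CPM in 15-HETrE libraries, against 159, 165 and 174 CPM in vehicle libraries. The groups stood at 71.6 ± 8.85 CPM in 15-HETrE and 166 ± 7.59 CPM in vehicle (SD, n = 3 each). The log2 fold change was -1.21 (SE 0.23, 95% interval -1.73 to -0.69, adjusted p 0.334 in limma), and it lay between -1.31 and -1.15 when any library was left out. Its adjusted p was 0.00278 in DESeq2 and 0.0814 to 0.910 in the other 16 alternatives.

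Ephb4 (chromosome 5, 137350109 to 137378669) encodes a receptor of ephrin-B2 best known from venous endothelium. It was supported by 5, 11 and 11 reads in 15-HETrE libraries and 259, 308 and 76 reads in vehicle libraries, or 0.228, 0.656 and 1.49 CPM against 12.1, 13.9 and 13.7 CPM. All 15-HETrE libraries were at a few reads, and the vehicle libraries lay within 12.1 to 13.9 CPM. The log2 fold change was -3.05 (SE 0.61, 95% interval -4.41 to -1.69, adjusted p 0.334 in limma), and -3.31 to -2.81 when any library was left out. As a low gene it depended on the scale, at -1.66 with a pseudocount of 5, -3.53 with a pseudocount of 0.5 and -4.14 in DESeq2. Its adjusted p was 0.000839 in DESeq2 and 0.0536 to 0.910 in the other 16 alternatives.

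Promoter windows of these genes, and of Epha6, whose p was smallest among the genes with positive differences, are printed as 250 bases before to 50 bases after a start (RefSeq, GRCm38.p6, gene strand, 5′ to 3′). Capitals mark GC boxes, GGGCGG on either strand, overlaps allowed. The Plxnb2 window at the upstream start is chr15:89180739-89181038 (minus strand), that of Ephb4 is chr5:137349859-137350158 (plus strand) and that of Epha6 is chr16:60605482-60605781 (minus strand).
Plxnb2: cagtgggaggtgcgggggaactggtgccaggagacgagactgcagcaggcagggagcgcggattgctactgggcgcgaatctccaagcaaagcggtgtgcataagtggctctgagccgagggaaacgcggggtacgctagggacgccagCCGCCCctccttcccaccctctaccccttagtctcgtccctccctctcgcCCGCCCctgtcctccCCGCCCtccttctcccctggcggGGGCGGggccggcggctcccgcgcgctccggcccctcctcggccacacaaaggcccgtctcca
Ephb4: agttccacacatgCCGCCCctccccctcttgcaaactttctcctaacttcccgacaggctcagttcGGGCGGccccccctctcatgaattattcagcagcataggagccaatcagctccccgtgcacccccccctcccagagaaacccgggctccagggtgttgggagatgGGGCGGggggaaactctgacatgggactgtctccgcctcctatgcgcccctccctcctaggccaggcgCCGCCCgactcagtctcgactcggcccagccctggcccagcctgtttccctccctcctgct
Epha6: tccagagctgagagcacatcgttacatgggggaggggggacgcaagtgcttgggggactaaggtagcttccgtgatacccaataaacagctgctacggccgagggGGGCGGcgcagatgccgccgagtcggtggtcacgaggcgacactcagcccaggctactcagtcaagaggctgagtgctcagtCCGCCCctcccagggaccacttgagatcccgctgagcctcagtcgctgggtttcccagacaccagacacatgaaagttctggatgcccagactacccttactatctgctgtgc
The windows hold 4, 4 and 2 GC boxes and 27, 14 and 15 CpG dinucleotides for Plxnb2, Ephb4 and Epha6, and neither TATAAA nor CACGTG on either strand. A window was found for 58 of the 68 guidance genes, 74 windows in all. Of these, 52 (70.3%) hold a GC box, as do 35.7% of all 32851 windows in the table. Unlike the guidance genes, that whole set of windows was not limited to genes averaging at least 1 CPM. Its median was 7 CpG dinucleotides per window, against 19.5 in guidance gene windows. The part of CpG content and of the filter in these shares was not tested. TATAAA was found in 2.70% of guidance gene windows and 13.6% of all windows, and CACGTG in 6.76% and 7.15%. These are matches of letters, and the genes on both sides of the comparison share them.

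**Figure D2:**
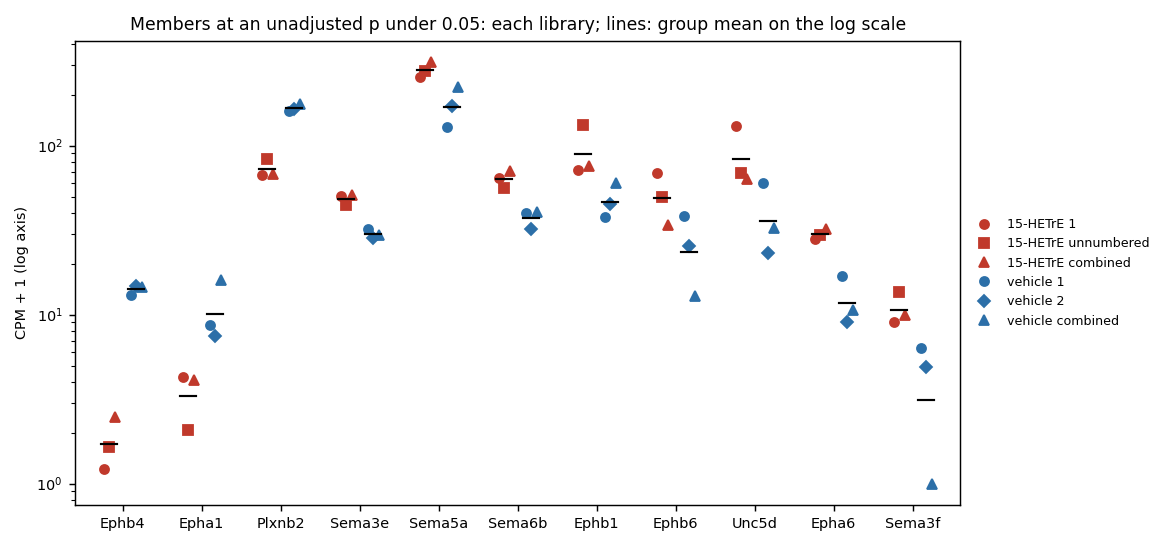
CPM + 1 on a log axis in each library for the 11 guidance genes at an unadjusted p under 0.05, 15-HETrE left of vehicle, with lines at the group mean on the log scale. The libraries of Ephb6 overlap between groups and those of the other 10 genes do not; none of the 11 passed the adjusted test in limma.

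Semaphorins were the largest ligand family. Of 19 kept, 14 had a positive difference and 5 a negative one, with a median of 0.28. Libraries did not overlap between groups for 4 on the higher side (21.1%, background 6.84%) and 1 on the lower side (5.26%, background 8.32%). Sema5a, a transmembrane semaphorin with thrombospondin repeats (chromosome 15, 32244810 to 32696341), had 254, 275 and 312 CPM in 15-HETrE libraries, against 128, 171 and 220 CPM in vehicle libraries. Sema6b, which acts through plexin-A receptors, had 63.0, 55.2 and 70.1 CPM in 15-HETrE libraries, against 38.8, 31.1 and 39.4 CPM in vehicle libraries. Sema3e, the secreted ligand of plexin-D1, had 49.2, 43.4 and 50.1 CPM in 15-HETrE libraries, against 31.0, 27.5 and 28.8 CPM in vehicle libraries. For these genes every 15-HETrE library lay above every vehicle library, with log2 fold changes of 0.72, 0.77 and 0.69 (SE 0.26, 0.28 and 0.29; adjusted p 0.462, 0.465 and 0.513 in limma). Sema3f, a secreted repellent that binds neuropilin-2, also did not overlap, at 8.06, 12.7 and 8.92 CPM in 15-HETrE libraries and 5.33, 3.91 and 0 CPM in vehicle libraries. The log2 fold change of Sema3f, 1.77 (SE 0.78, adjusted p 0.520 in limma), was 0.94 to 2.27 when any library was left out, and vehicle combined held no read of it.

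On the lower side, Sema4c, a ligand of plexin-B2, had 19.2, 21.8 and 12.7 CPM in 15-HETrE libraries and 28.4, 32.4 and 33.1 CPM in vehicle libraries. Both Sema4c and its receptor gene Plxnb2 thus had lower values in 15-HETrE with no overlap, though the log2 fold change of Sema4c, -0.80 (SE 0.38), had an adjusted p of 0.548 in limma. Sema4d, which signals through plexin-B1 and is made by oligodendrocytes, had 114, 191 and 172 CPM in 15-HETrE libraries against 98.9, 130 and 75.7 CPM in vehicle libraries, so vehicle 2 lay within the 15-HETrE range. Sema3a, the best-known axon repellent of the glial scar, was close in both groups, at 28.5 ± 15.2 CPM in 15-HETrE and 26.6 ± 12.9 CPM in vehicle (SD, n = 3 each), with a 95% interval of the log2 fold change from -1.05 to 1.24. Sema7a, a lipid-anchored member that promotes axon growth through integrins, had a log2 fold change of 0.26 with overlapping libraries. The most abundant by CPM were Sema6d and Sema6a. Sema6d had 285, 493 and 372 CPM in 15-HETrE libraries and 270, 349 and 347 CPM in vehicle libraries. Sema6a had 257, 323 and 310 CPM in 15-HETrE libraries and 144, 225 and 290 CPM in vehicle libraries. Both overlapped between groups. The remaining 9 semaphorin genes (Sema3b, Sema3c, Sema3d, Sema4a, Sema4b, Sema4f, Sema4g, Sema5b and Sema6c) overlapped as well, with log2 fold changes from -0.75 for Sema6c to 0.73 for Sema3c. Sema3c, with 5 reads in vehicle combined, stood at -0.63 without that library, and Sema6c at -0.02 without 15-HETrE combined and -0.28 without vehicle combined.

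Plexins showed no common direction: 4 of 9 were positive and 5 negative, with a median of -0.07. Plxna4 and Plxna2, whose products are repellent receptors paired with neuropilins, were higher in most 15-HETrE libraries. Plxna4 had 163, 112 and 107 CPM in 15-HETrE libraries and 116, 52.0 and 81.8 CPM in vehicle libraries. Plxna2 had 178, 155 and 102 CPM in 15-HETrE libraries and 144, 84.8 and 72.5 CPM in vehicle libraries. In both, vehicle 1 lay within the 15-HETrE range, and the log2 fold changes were 0.65 (SE 0.33) and 0.55 (SE 0.32). Plxna1 did not overlap, on the lower side, but by a narrow margin: 108, 99.3 and 113 CPM in 15-HETrE libraries and 141, 114 and 113 CPM in vehicle libraries. Plxnd1, a plexin of vessels and some neurons, had 134, 95.3 and 211 CPM in 15-HETrE libraries and 118, 104 and 95.7 CPM in vehicle libraries. Plxnb3, which is abundant in oligodendrocytes, had 269, 507 and 210 CPM in 15-HETrE libraries and 189, 267 and 389 CPM in vehicle libraries. For Plxnd1 and Plxnb3 the 15-HETrE libraries alone spread more widely than the groups differed. Plxnb1, Plxnc1 and Plxna3 overlapped between groups and stood at log2 fold changes of -0.07, -0.18 and -0.13.

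Both neuropilin genes had negative differences, with the libraries of the groups overlapping. Nrp1, a co-receptor for Sema3a and for VEGF, had 14.7, 34.6 and 28.7 CPM in 15-HETrE libraries and 88.6, 63.8 and 3.78 CPM in vehicle libraries. Vehicle combined held the lowest value of all and the other vehicle libraries the highest ones, the same vehicle libraries in which fibroblast markers were high; the part of these cells in the result was not tested. The log2 fold change of Nrp1 was -0.25 (SE 0.93), turned to 0.54 without vehicle 1, 0.30 without vehicle 2 and 0.10 without 15-HETrE 1, was -1.58 without vehicle combined and -1.69 without both combined libraries, and was 1.12 with the fibroblast marker level as a covariate. In edgeR and DESeq2 it was -1.01 and -0.97. Nrp2 had 21.9, 15.9 and 10.8 CPM in 15-HETrE libraries and 24.6, 20.5 and 64.4 CPM in vehicle libraries, a log2 fold change of -0.99 (SE 0.50), which was -0.50 without vehicle combined.

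Of 8 ephrins, 4 were positive and 4 negative. Efnb2, the partner of Ephb4 and a marker of arterial endothelium that neurons also make, had 34.9, 20.1 and 40.5 CPM in 15-HETrE libraries and 62.1, 53.7 and 44.1 CPM in vehicle libraries. The groups did not overlap, and the log2 fold change was -0.77 (SE 0.35, adjusted p 0.532 in limma). It was -0.12 within the combined pair. Efnb3, a ligand in myelin and the corpus callosum that inhibits axon growth, had 169, 284 and 177 CPM in 15-HETrE libraries and 142, 256 and 89.4 CPM in vehicle libraries. Efna5, which shapes cortical maps, had 59.2, 37.8 and 32.3 CPM in 15-HETrE libraries and 50.0, 19.8 and 23.6 CPM in vehicle libraries. Efna2 had 6.83, 14.0 and 14.3 CPM in 15-HETrE libraries and 6.92, 5.58 and 4.68 CPM in vehicle libraries. Efnb3, Efna5 and Efna2 all overlapped between groups. Efna3 did not overlap, on the higher side, at 9.83, 5.97 and 8.38 CPM in 15-HETrE libraries and 5.94, 4.18 and 3.60 CPM in vehicle libraries. The margin was narrow, with 5.968 CPM in 15-HETrE unnumbered, where 1 read was 0.0597 CPM, and 5.937 CPM in vehicle 1. Efna1, Efna4 and Efnb1 overlapped between groups and stood at -0.26, -0.42 and -0.31 (log2 fold change).

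**Figure D3:**
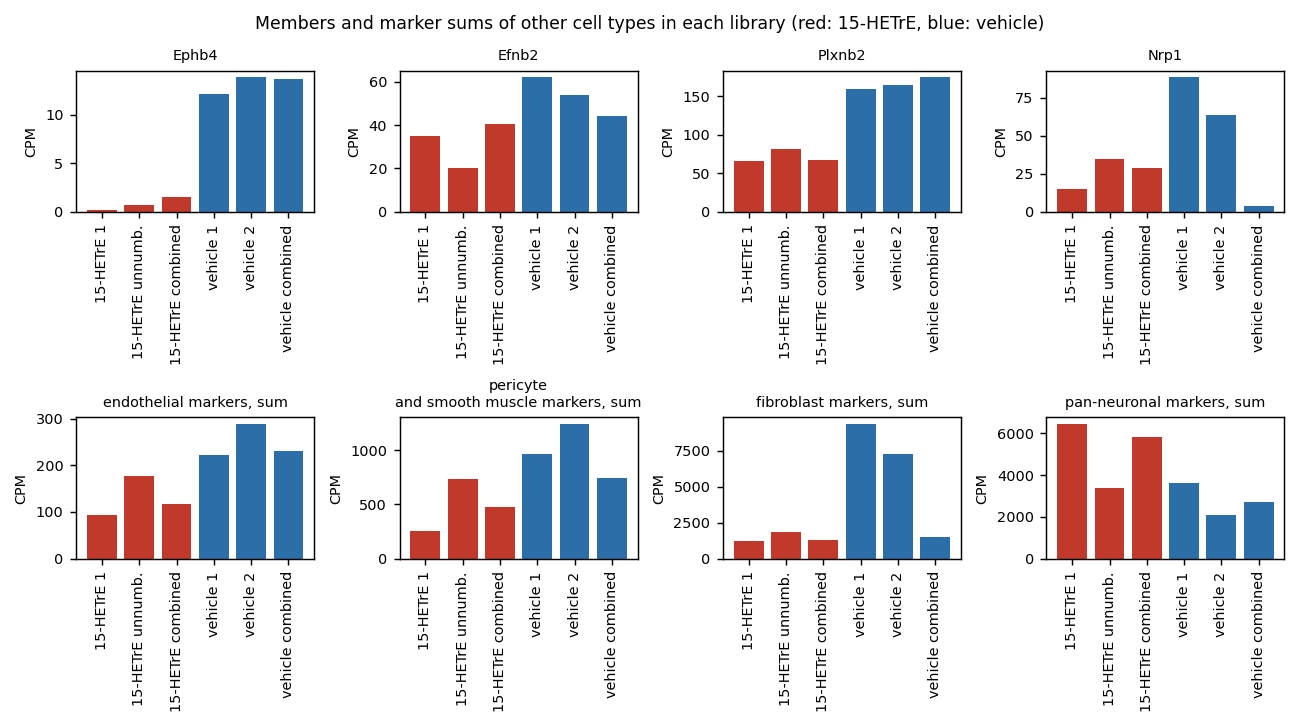
CPM in each library for Ephb4, Efnb2, Plxnb2 and Nrp1 (top) and the summed CPM of markers of endothelium, pericytes and smooth muscle, fibroblasts and neurons (bottom), 15-HETrE in red and vehicle in blue. Endothelial and pericyte sums of the groups do not overlap, and the fibroblast sum is highest in vehicle 1 and vehicle 2. Cdh5 makes up a large part of the endothelial sum in vehicle 1 and vehicle 2.

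Markers of vessel cells are given beside Ephb4 and Efnb2. The 10 endothelial markers summed to 94.0, 176 and 116 CPM in 15-HETrE libraries and 221, 288 and 231 CPM in vehicle libraries. Of these, 3 of 10 had a positive difference, and Tek and Esam were at 0 in at least 1 library. Cdh5 alone had 4.19, 37.6 and 3.11 CPM in 15-HETrE libraries and 116, 161 and 5.40 CPM in vehicle libraries. It thus made up a large part of the endothelial sums in vehicle 1 and vehicle 2. The 9 pericyte and smooth muscle markers summed to 257, 736 and 472 CPM in 15-HETrE libraries and 965, 1238 and 743 CPM in vehicle libraries. Of the 9, 7 were negative, with no marker at 0. On the lower side, 5 of the 9 stood at an unadjusted p under 0.05 in limma (5.23% of all genes). Libraries did not overlap between groups for 5 of the 9, on the lower side (background 8.32%). Both counts were 0 for the endothelial markers. The endothelial and pericyte sums did not overlap between groups. The mean log2 level of the endothelial list did overlap, at 3.32 in 15-HETrE unnumbered and 3.29 in vehicle 1. Neither list had a gene past the adjusted test in limma. Robo4, an endothelial Robo, had a positive difference with overlapping libraries, at 2.50, 10.1 and 1.62 CPM in 15-HETrE libraries and 0.935, 2.70 and 0.540 CPM in vehicle libraries. The part of vessel cells in the values of Ephb4 and Efnb2 was not tested. With the fibroblast level as a covariate, the log2 fold changes of Ephb4, Efnb2 and Plxnb2 were -3.16, -0.81 and -1.19.

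Eph receptors had the most genes at an unadjusted p under 0.05 in limma, 5 of 14, with 3 higher and 2 lower. Over all genes tested the share was 9.5% (4.27% higher, 5.23% lower). In all, 11 of the 14 were positive, with a median of 0.40. Epha6 (chromosome 16, 59653483 to 60605531), an EphA receptor of the brain, had 27.1, 28.5 and 31.2 CPM in 15-HETrE libraries and 15.9, 8.01 and 9.71 CPM in vehicle libraries. Ephb1, which guides retinal and callosal axons, had 70.4, 132 and 74.7 CPM in 15-HETrE libraries and 36.9, 43.9 and 58.8 CPM in vehicle libraries. Neither gene overlapped between groups, and their log2 fold changes were 1.35 (SE 0.42, adjusted p 0.425 in limma) and 0.94 (SE 0.33, adjusted p 0.460 in limma). Ephb6, an Eph receptor without kinase activity, had 67.9, 48.6 and 32.7 CPM in 15-HETrE libraries and 37.6, 24.6 and 11.9 CPM in vehicle libraries, where 15-HETrE combined lay below vehicle 1. Its log2 fold change was 1.06 (SE 0.46, adjusted p 0.517 in limma). Epha1 was on the lower side without overlap, at 3.28, 1.07 and 3.11 CPM in 15-HETrE libraries and 7.67, 6.48 and 15.1 CPM in vehicle libraries. Epha4, the receptor most studied as a brake on recovery after stroke, had 266, 200 and 169 CPM in 15-HETrE libraries and 247, 120 and 109 CPM in vehicle libraries. Vehicle 1 lay among the 15-HETrE values, and the 95% interval of the log2 fold change of Epha4 ran from -0.26 to 1.24. The remaining 8 Eph genes (Epha2, Epha3, Epha5, Epha7, Epha8, Epha10, Ephb2 and Ephb3) overlapped, with log2 fold changes from -1.30 for Epha2 to 1.54 for Epha10.

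All 3 Slit and all 4 Robo genes had positive differences with overlapping libraries. Slit3 had 37.1, 15.5 and 42.4 CPM in 15-HETrE libraries and 27.7, 14.2 and 3.60 CPM in vehicle libraries. Slit1 had 35.2, 52.0 and 29.3 CPM in 15-HETrE libraries and 40.9, 30.0 and 30.0 CPM in vehicle libraries. Slit2 had 42.1, 25.8 and 23.5 CPM in 15-HETrE libraries and 34.1, 10.3 and 32.9 CPM in vehicle libraries. The log2 fold changes of Slit3, Slit1 and Slit2 were 1.25 (SE 0.68), 0.18 (SE 0.34) and 0.36 (SE 0.50). That of Slit3 was 0.53 without vehicle combined and 0.26 without both combined libraries. Robo1, a main receptor of Slits on axons, had 70.6, 109 and 99.6 CPM in 15-HETrE libraries and 78.8, 58.2 and 36.9 CPM in vehicle libraries. Robo2, its partner, had 91.1, 87.4 and 57.4 CPM in 15-HETrE libraries and 98.2, 62.6 and 34.7 CPM in vehicle libraries. Robo3, which lets commissural axons cross the midline, had 30.5, 16.5 and 6.89 CPM in 15-HETrE libraries and 10.3, 4.54 and 6.83 CPM in vehicle libraries. Log2 fold changes were 0.71 (SE 0.33), 0.36 (SE 0.38) and 1.05 (SE 0.62) for Robo1, Robo2 and Robo3, and vehicle 1 lay above 1 or more 15-HETrE libraries for each.

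Among netrins, Ntn5 did not overlap, on the higher side, with 89, 40 and 16 reads in 15-HETrE libraries and 26, 2 and 1 reads in vehicle libraries, or 4.05, 2.39 and 2.16 CPM against 1.22, 0.0900 and 0.180 CPM. Its log2 fold change was 1.42 (SE 0.69, adjusted p 0.565 in limma), 0.52 with a pseudocount of 5 and 2.52 in DESeq2. Ntn1, the attractant that binds Dcc, had 54.0, 21.4 and 75.6 CPM in 15-HETrE libraries and 25.9, 41.5 and 67.1 CPM in vehicle libraries, with no order between the groups. Ntn4, a netrin of basement membranes, had 11.3, 19.6 and 14.7 CPM in 15-HETrE libraries and 10.5, 15.7 and 7.55 CPM in vehicle libraries. Ntn3 had 9.29, 10.3 and 0.135 CPM in 15-HETrE libraries and 6.45, 10.5 and 12.9 CPM in vehicle libraries, and its log2 fold change of -1.06 (SE 0.88) was 0.03 without 15-HETrE combined.

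Of the netrin receptors, Unc5d, a dependence receptor of upper cortical layers that also binds Flrt proteins (chromosome 8, 28646717 to 29219636), had 129, 68.0 and 62.8 CPM in 15-HETrE libraries and 59.5, 22.1 and 31.7 CPM in vehicle libraries. The groups did not overlap, by a margin of vehicle 1 under 15-HETrE combined, and the log2 fold change was 1.22 (SE 0.42, adjusted p 0.460 in limma). Beside it, pan-neuronal markers had a median log2 fold change of 0.81, excitatory neuron markers one of 0.71 and inhibitory neuron markers one of 0.73. Astrocyte markers had a median of 1.07, with 9 of 10 positive and sums of 1490 to 21326 CPM in 15-HETrE and 694 to 7887 CPM in vehicle libraries. The sums of 21326 and 7887 CPM were those of 15-HETrE combined and vehicle combined, and the other libraries had 694 to 3821 CPM. The part of these cells in the value of Unc5d was not tested. Dcc, the attractive netrin receptor, had 95.3, 106 and 55.1 CPM in 15-HETrE libraries and 49.3, 42.8 and 79.1 CPM in vehicle libraries. Unc5a had 64.0, 33.8 and 55.7 CPM in 15-HETrE libraries and 53.8, 33.6 and 34.7 CPM in vehicle libraries. Unc5c had 127, 168 and 131 CPM in 15-HETrE libraries and 101, 94.8 and 185 CPM in vehicle libraries. Unc5b, also of vessels, had 93.4, 136 and 117 CPM in 15-HETrE libraries and 106, 146 and 138 CPM in vehicle libraries. These 4 overlapped between groups, and the interval of Unc5b, -0.74 to 0.40, was the narrowest of this family.

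Levels of different genes were compared as CPM per kb of annotated exon. Efnb3 was the highest ephrin in every library, at 28.1 to 89.4 CPM per kb, and made up 54.3% to 79.2% of the ephrin total per kb. Epha4 was the highest Eph receptor in every library (13.5 to 33.1 CPM per kb), and Plxnb3 the highest plexin in every library (29.2 to 78.1 CPM per kb). Below them the order changed between libraries: Plxnd1 was second among plexins in the 15-HETrE libraries and Plxnb2 in the vehicle libraries. Among semaphorins, Sema6d, Sema6a, Sema3d and Sema7a had mean levels of 33.4, 29.4, 25.4 and 20.7 CPM per kb, and their ranges over libraries overlapped. Nrp1 exceeded Nrp2 in 4 libraries, with Nrp2 higher in 15-HETrE 1 and vehicle combined. Unc5b was the highest of the netrin receptors in 5 libraries and Unc5a in 15-HETrE 1. Exonic length joins all annotated transcripts, which sets genes with long alternative ends low on this scale.

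**Figure D4:**
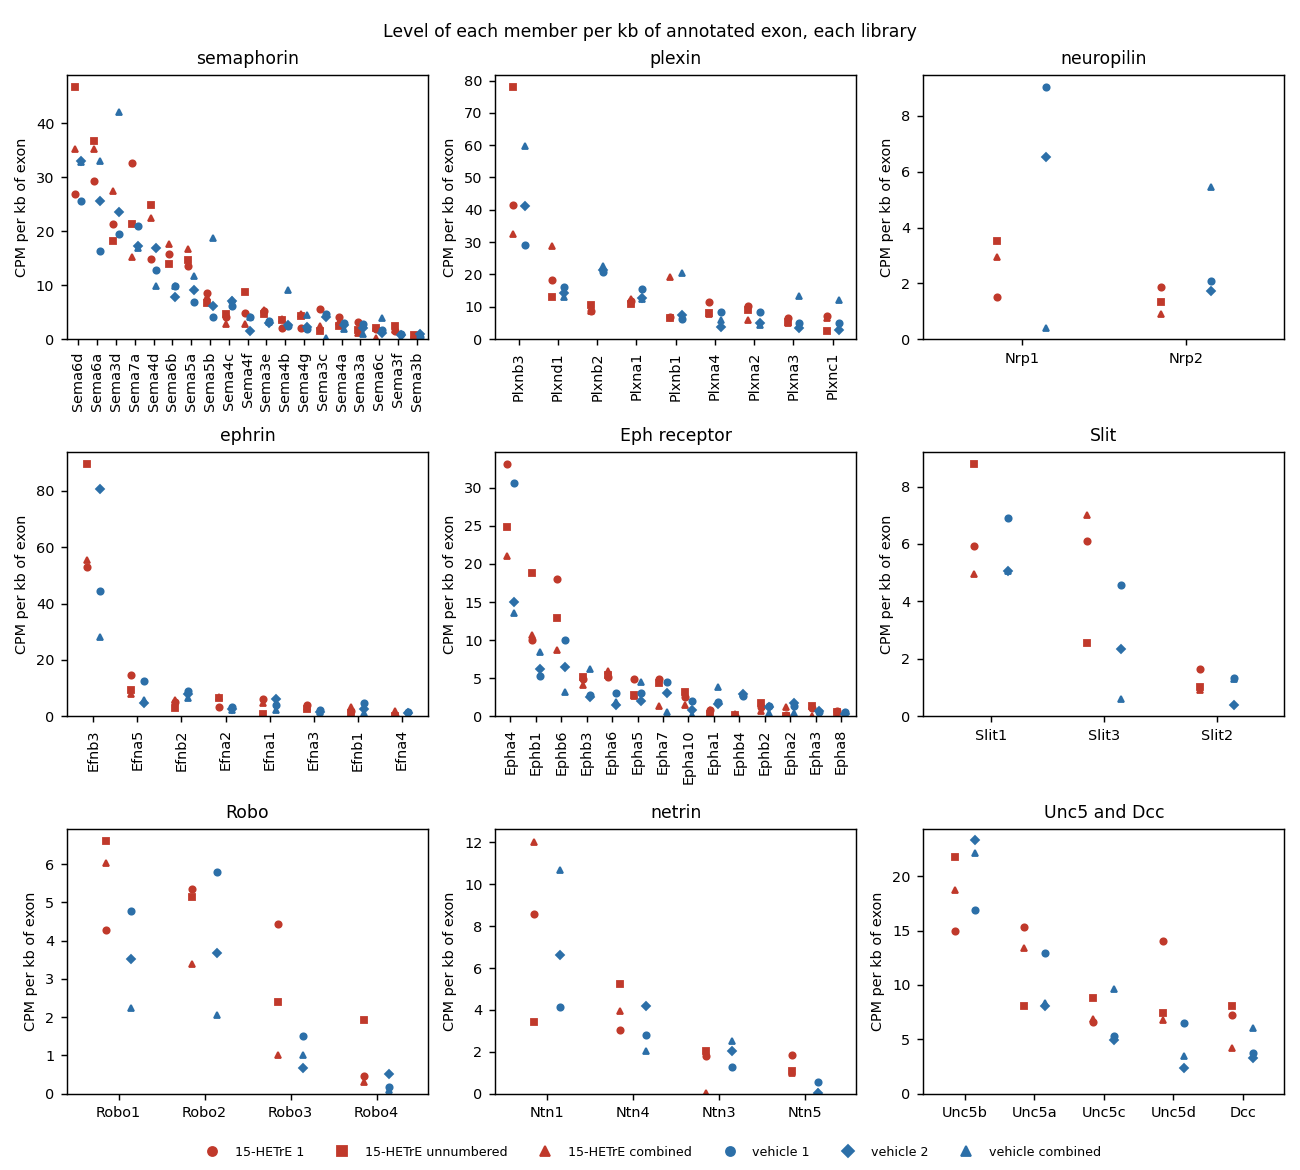
CPM per kb of annotated exon for each kept member, by family, with 15-HETrE libraries left and vehicle libraries right of each tick. Efnb3, Epha4 and Plxnb3 lead their families in all 6 libraries, whereas the libraries of neighbouring genes overlap in most families.

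Differences were also taken within the shared name prefix and within the combined pair, which use different columns. These were 15-HETrE 1 minus the mean of vehicle 1 and vehicle 2, and 15-HETrE combined minus vehicle combined. The guidance genes were positive for 47 of 68 in the first and 41 of 68 in the second, with medians of 0.42 and 0.36; over all genes the medians were 0.00 and 0.08. The sign was the same in both for 42 of 68 genes (61.8%), against 57.2% of all genes tested. Ephb4 differed by -3.51 and -2.56, Plxnb2 by -1.28 and -1.37, Epha1 by -0.91 and -1.97, Epha6 by 1.19 and 1.59 and Unc5d by 1.80 and 0.97; their sign was fixed by the absence of overlap. 15-HETrE unnumbered enters neither value.

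**Figure D5:**
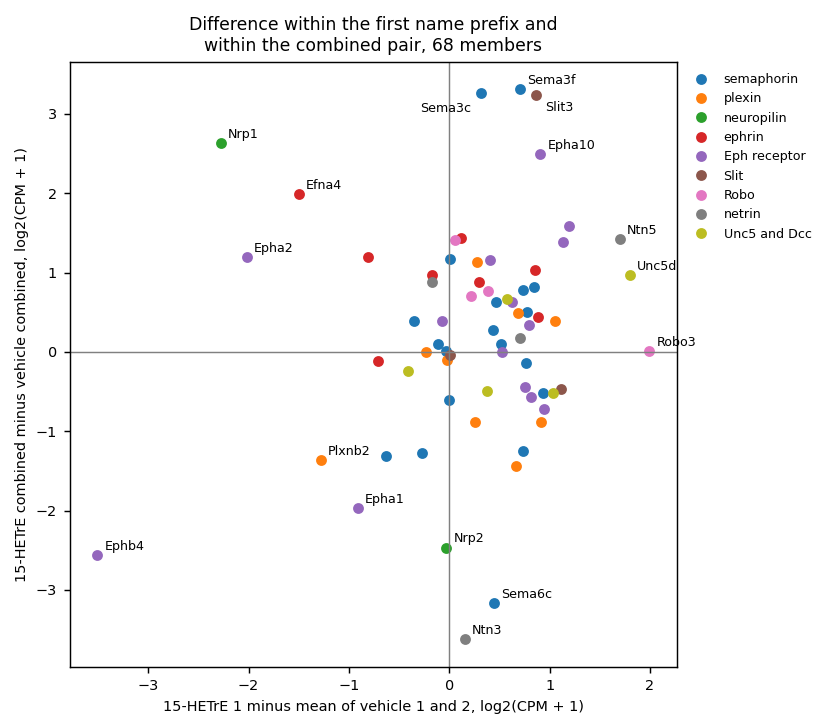
Difference in log2(CPM + 1) of 15-HETrE 1 minus the mean of vehicle 1 and 2 (horizontal) and of 15-HETrE combined minus vehicle combined (vertical) for the 68 members, coloured by family. Ephb4 and Plxnb2 lie low on both axes, whereas Nrp1 lies at -2.28 and 2.63.

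Genes that act beside or below these receptors were described from lists. Of 53 cytoplasmic mediators, 52 were kept, 32 positive and 20 negative with a median of 0.23; 0 passed the adjusted test in limma, and 5 higher and 4 lower stood at an unadjusted p under 0.05 (4.27% and 5.23% of all genes). Vasp, an actin elongation factor, had 9.20, 9.13 and 3.92 CPM in 15-HETrE libraries and 30.8, 42.3 and 21.9 CPM in vehicle libraries; it stood at -1.98 on the log2 scale (SE 0.50, adjusted p 0.394 in limma). Sipa1l1, a GTPase-activating protein for Rap, had 403, 275 and 830 CPM in 15-HETrE libraries and 209, 129 and 198 CPM in vehicle libraries. It stood at 1.36 on the log2 scale (SE 0.39, adjusted p 0.394 in limma). Neither gene overlapped between groups.

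Of 39 other guidance cues and co-receptors, all were kept, 26 positive and 13 negative with a median of 0.25; 0 passed the adjusted test in limma, and 3 higher and 1 lower stood at an unadjusted p under 0.05 (4.27% and 5.23% of all genes). Lingo1, part of the Nogo receptor complex, had 273, 171 and 180 CPM in 15-HETrE libraries and 120, 70.9 and 52.0 CPM in vehicle libraries. Lrrc4, a synaptic ligand of netrin-G2, had 101, 116 and 124 CPM in 15-HETrE libraries and 60.8, 60.3 and 55.0 CPM in vehicle libraries. Neither gene overlapped between groups, with log2 fold changes of 1.40 (SE 0.34, adjusted p 0.366 in limma) and 0.94 (SE 0.24, adjusted p 0.394 in limma). Both were on the side of the pan-neuronal markers, 11 of 12 of which were positive, and of the astrocyte markers; the part of either cell type in these values was not tested.

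Over 5% of the exonic bases were shared with a gene on the opposite strand for Sema4c, Efna3, Efna4, Epha1, Plxna1 and Ntn5, at 6.01% for Epha1 to 23.4% for Ntn5. The sources used here do not state whether reads were counted by strand, so their values may hold reads of the partner.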

How the data were processed

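Cells were freed with pronase (75 min); RNA came from RNeasy Mini columns and sequencing libraries from the Ovation SoLo kit, per the labels' protocols. The authors used Trimmomatic, HISAT2, featureCounts and edgeR with mm10, per the submitters' processing notes; of versions, settings and annotation the sources used here state nothing. The deposited values are a signal scaled as CPM with a size factor per library. In every column 100% of values were whole multiples of the smallest value above 0, within 1e-04 reads, so reads were recovered; TMM factors computed anew gave the same calls. The groups come from the column names, 3 of which match a sample title; 0 other columns were present. A gene with no read in a library entered the limma fit as 0 CPM before 1 was added. The 95% intervals are those of limma and cover only the variation among these libraries.

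The 14523 genes averaging 1 CPM or more were fitted with limma 3.58.1 in R 4.3.3 on log2(CPM + 1), with group as the only term and a variance trend. On this scale, fold changes (15-HETrE minus vehicle) of low genes are understated. Tests were two-sided, adjusted by Benjamini-Hochberg over all genes kept. The design assumed CPM and was applied to the scaled CPM. Alternatives were edgeR 4.0.16, DESeq2 1.42.0, pseudocounts of 0.5 and 5, other filters and scalings, each library left out, both combined libraries left out, the name prefix as a term and the fibroblast level as a covariate. Scripts were tested on simulated counts. Genes and lists were chosen with earlier results of these data known. Named with values in every library are, per family, the 3 genes with the smallest p and the 2 with the highest mean; others with such values were chosen after their values were seen. Marker lists are given as sums, and of the single genes the rule takes only Cdh5 is given with values. Positions and exon lengths come from GENCODE M21 (GRCm38), in which all 69 symbols matched.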

Additional observations from a re-analysis of the deposited data

How the results depend on the processing

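By replicate number, no paired analysis was possible because the columns of both groups share only the number 1. A fit with the name prefix as a term was run, and is given below. It took the combined pair as a prefix of its own. 15-HETrE unnumbered stood alone under its prefix, so the difference in this fit came from the other libraries. The median log2 fold change of the guidance genes stayed positive in all 17 alternatives, at 0.25 to 0.45 (0.32 as reported). No alternative but DESeq2 called a guidance gene; it called 2 of them and 165 genes in all. Over the whole table, where limma called 0 genes as reported, the name prefix as a term gave 8, leaving out both combined libraries 75, and leaving out single libraries 0 to 45. Guidance genes without overlap numbered 13 to 19 of 68 on the higher side (8.94% to 14.2% of all genes) and 6 to 8 on the lower side (10.4% to 20.4% of all genes) when single libraries were left out. Without both combined libraries they numbered 25 higher (20.9% of all genes) and 10 lower (25.8% of all genes). With all libraries scaled by median-of-ratios factors they numbered 10 higher (7.11% of all genes) and 5 lower (8.27% of all genes). Fewer libraries overlap less by construction; for the other changes the cause was not tested.

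When some single library was left out, the direction turned for 24 of 68 guidance genes (35.3%, against 41.1% of all genes tested). The reversals that follow are those of genes named with values in every library. With the prefix as a term, log2 fold changes were -0.0187 for Sema6d, -0.23 for Plxnb3, -0.0109 for Slit1 and -0.0002 for Unc5c. With the fibroblast covariate they were 1.12 for Nrp1, -0.56 for Ntn1 and -0.0088 for Unc5c. Without both combined libraries Ntn3 stood at 0.22. Other genes turned as well: Efna1 stood at 0.55 with the prefix as a term. Without both combined libraries, Sema3c stood at -0.53 and Sema6c at 0.46. With single libraries left out, values ran from -0.18 to 0.45 for Plxnb3, -1.58 to 0.54 for Nrp1, -0.0497 to 0.35 for Slit1, -0.18 to 0.64 for Slit2, -0.0255 to 0.71 for Robo2, -0.28 to 0.60 for Ntn1 and -1.63 to 0.0253 for Ntn3. Depth limits Ephb4, Epha1, Ntn5, Sema3f and other genes under 10 CPM, of which there were 15.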

Other observations

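Of the 68 guidance genes, 19 (27.9%) had their highest value in 15-HETrE 1, against 12.3% of all genes tested. In vehicle 2, 16 (23.5%) had their lowest value, against 13.1%. The sum of the pan-neuronal markers was also highest in 15-HETrE 1, at 6446 CPM, and lowest in vehicle 2, at 2093 CPM. The part of neurons in these counts was not tested. Vehicle combined held the lowest value for 22 (32.4%, against 28.6% of all genes) and the highest for 14 (20.6%, against 21.9%). Some receptors and ligands went opposite ways within the first name prefix and within the combined pair: Nrp1 differed by -2.28 and 2.63, Efna4 by -1.50 and 1.99, and Epha2 by -2.02 and 1.19 (15-HETrE minus vehicle, log2 scale). The reads behind Efna4 and Epha2 were few, 0 to 187 per library. These genes were named after their values were seen.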
